A study of Mus musculus with 12 samples.

Results

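The genes described here are 10 immediate early response genes, Fos, Fosb, Jun, Junb, Jund, Atf3, Egr1, Nr4a1, Ier2 and Dusp1, among 53801 genes of the count table. They were chosen by symbol, through the Ensembl identifiers of the table, and all 10 were found in it. The RNA came from eosinophils of mice, and the 12 libraries fall into 4 groups of 3: bone marrow and blood eosinophils of Atg5-knockout mice, and bone marrow and blood eosinophils of control mice. The Atg5-knockout mice were Atg5 flox/flox eoCre Il5tg and the control mice eoCre Il5tg, so that both genotypes carried, in heterozygous form, a Cre recombinase knocked into the eosinophil peroxidase gene, and both carried an Il5 transgene driven from Cd3d, which fills the animals with eosinophils. Each genotype was represented by 3 mice, and neither their ages nor which blood and bone marrow libraries came from 1 mouse are given in the labels.

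Marrow cells were flushed from femurs and tibias, and other leukocytes were depleted with a panel of antibodies that included those to CD8α, CD90.2 and Ly6G. Blood cells first passed through a Histopaque gradient and a brief lysis of red cells in ice-cold water, and then the same depletion. Tissue and isolation procedure therefore cannot be told apart in any difference between blood and bone marrow given below.

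Immediate early genes are transcribed within minutes of a stimulus from factors already present in the cell, without new protein synthesis, and their mRNAs are short-lived. FOS and JUN family proteins pair through leucine zippers into AP-1, which binds promoters and enhancers of many response genes, and phosphatases such as DUSP1 close the loop by inactivating the MAP kinases that started it. In leukocytes these genes answer cytokines, adhesion and Fc receptor signals, and they also respond to cell handling such as cooling, centrifugation and osmotic shock.

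The promoters of the 4 genes with the largest difference between blood and bone marrow in both genotypes, Fosb, Nr4a1, Dusp1 and Fos, are shown with TGACG marked, the core of the cAMP response element through which CREB and ATF proteins reach several immediate early genes. The sequences are RefSeq's for GRCm38.p6, the genome of the count table, 5′ to 3′ on the strand of the gene, up to 250 bases before the RefSeq start site and cut where an exon of the count table begins. Capitals mark TGACG on either strand, read as CGTCA on the other.
Fos, chr12:85473640-85473889, plus strand: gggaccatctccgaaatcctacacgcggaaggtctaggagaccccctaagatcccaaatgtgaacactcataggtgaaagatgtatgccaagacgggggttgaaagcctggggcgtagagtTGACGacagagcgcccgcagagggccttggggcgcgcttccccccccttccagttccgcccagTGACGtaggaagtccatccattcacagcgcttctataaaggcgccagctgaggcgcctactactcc
Fosb, chr7:19310052-19310295, minus strand: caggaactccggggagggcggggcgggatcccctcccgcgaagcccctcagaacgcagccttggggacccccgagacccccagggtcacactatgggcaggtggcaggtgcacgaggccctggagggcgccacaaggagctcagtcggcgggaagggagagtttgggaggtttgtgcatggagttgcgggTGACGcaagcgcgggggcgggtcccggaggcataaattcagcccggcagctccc
Nr4a1, chr15:101266596-101266845, plus strand: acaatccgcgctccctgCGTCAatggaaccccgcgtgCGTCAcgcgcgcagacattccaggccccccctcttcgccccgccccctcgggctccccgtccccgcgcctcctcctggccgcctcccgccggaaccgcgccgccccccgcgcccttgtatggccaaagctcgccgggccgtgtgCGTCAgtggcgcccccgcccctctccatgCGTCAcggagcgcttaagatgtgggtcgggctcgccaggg
Dusp1, chr17:26508520-26508722, minus strand: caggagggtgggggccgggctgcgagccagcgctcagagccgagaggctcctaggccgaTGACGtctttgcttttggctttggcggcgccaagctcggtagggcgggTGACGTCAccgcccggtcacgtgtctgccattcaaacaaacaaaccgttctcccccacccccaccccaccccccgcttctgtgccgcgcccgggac

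Nr4a1 held 4 copies of TGACG, Dusp1 3, Fos 2 and Fosb 1. Of the copies of Dusp1, 2 overlap in the full palindrome TGACGTCA. Over 250 bases before the start, 6 of the 8 members looked up held TGACG (Atf3, Fosb, Junb, Fos, Nr4a1 and Dusp1) and Jun and Jund did not, against 17.8% of 32851 promoters. Cut at the exon, Atf3 kept 243 bases and 0 copies. After that cut the 6 were 58.4% to 74.4% G and C, Jun 61.2% and Jund 47.6%. The share of all promoters was not matched for base composition. The palindrome was in Dusp1 alone of the 8 and in 1.55% of all promoters, and a TATA box, spelt TATAAA, was in Fos alone and in 12.4%. The AP-1 site TGANTCA was in none of the 8 and in 6.75% of all promoters, and the CArG box of serum response factor was in none and in 1.47%. Both strands were searched, each copy of the palindrome is also counted as TGACG, and a match of letters is not a binding site. The RefSeq start sites of Jund, Nr4a1 and Atf3 differ widely from the gene starts in the count table. Those of Fosb, Junb and Dusp1 differ less, and those of Fos and Jun are the same. Ier2 had no promoter entry and Egr1 was left out of the search. The motif counts, that of the CArG box among them, therefore say nothing of Ier2 or Egr1.

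Values are CPM, the usual scaling of counts by library size, here with TMM factors over the 12 libraries, whose totals ran from 18885052 to 30270166 counts. Tests are edgeR's quasi-likelihood test with Benjamini-Hochberg adjustment over all genes tested, and a gene is called at an adjusted p under 0.05. Eosinophil genes were high in all libraries, with Prg2, the major basic protein, at 41379.5 to 55625.5 CPM in bone marrow and 7047 to 23815 CPM in blood. Markers of other leukocytes were not absent. The 11 neutrophil markers summed to 13342 to 20652 CPM in blood and 20515 to 29119 CPM in bone marrow. In Atg5-knockout blood replicate 1 they exceeded the 10 eosinophil markers, at 20652 against 17483 CPM. The 7 B cell markers summed to 177 to 2138 CPM in blood and 333 to 371 CPM in bone marrow. The 12 T cell and NK cell markers summed to 332 to 773 and 89.6 to 118 CPM, and the 9 monocyte and macrophage markers to 3121 to 3636 and 2384 to 2795 CPM. Atg5, counted over the whole gene with the deleted part not counted apart, was at 32.0 ± 1.74 CPM in Atg5-knockout and 42.5 ± 2.62 CPM in control bone marrow (SD, n = 3; adjusted p = 0.157) and at 47.2 ± 9.12 and 48.1 ± 9.62 CPM in blood (adjusted p = 1.0), so the genotypes did not overlap in bone marrow and overlapped in blood, where it does not check the labels.

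The first question was how the genes differed between blood and bone marrow eosinophils, within each genotype. In control mice 9 of the 10 genes were called higher in blood, beside 16.2% of all genes tested, and in Atg5-knockout mice all 10 were, beside 23.5%. Fosb, 1 of them in each genotype, passed the filter on low counts only through blood. The study also required a log2 fold change beyond 2, in its DESeq2 comparisons of the genotypes. With that cutoff added to the edgeR calls between tissues, 8 members remained in control mice, beside 4.38% of all genes. In Atg5-knockout mice 9 remained, beside 5.26%. The members' median log2 fold change was 2.63 in control mice and 3.53 in Atg5-knockout mice, while the median of all genes was -0.0029 and -0.01. In bulk RNA, fewer expressing cells and less RNA per cell cannot be told apart.

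**Figure D1:**
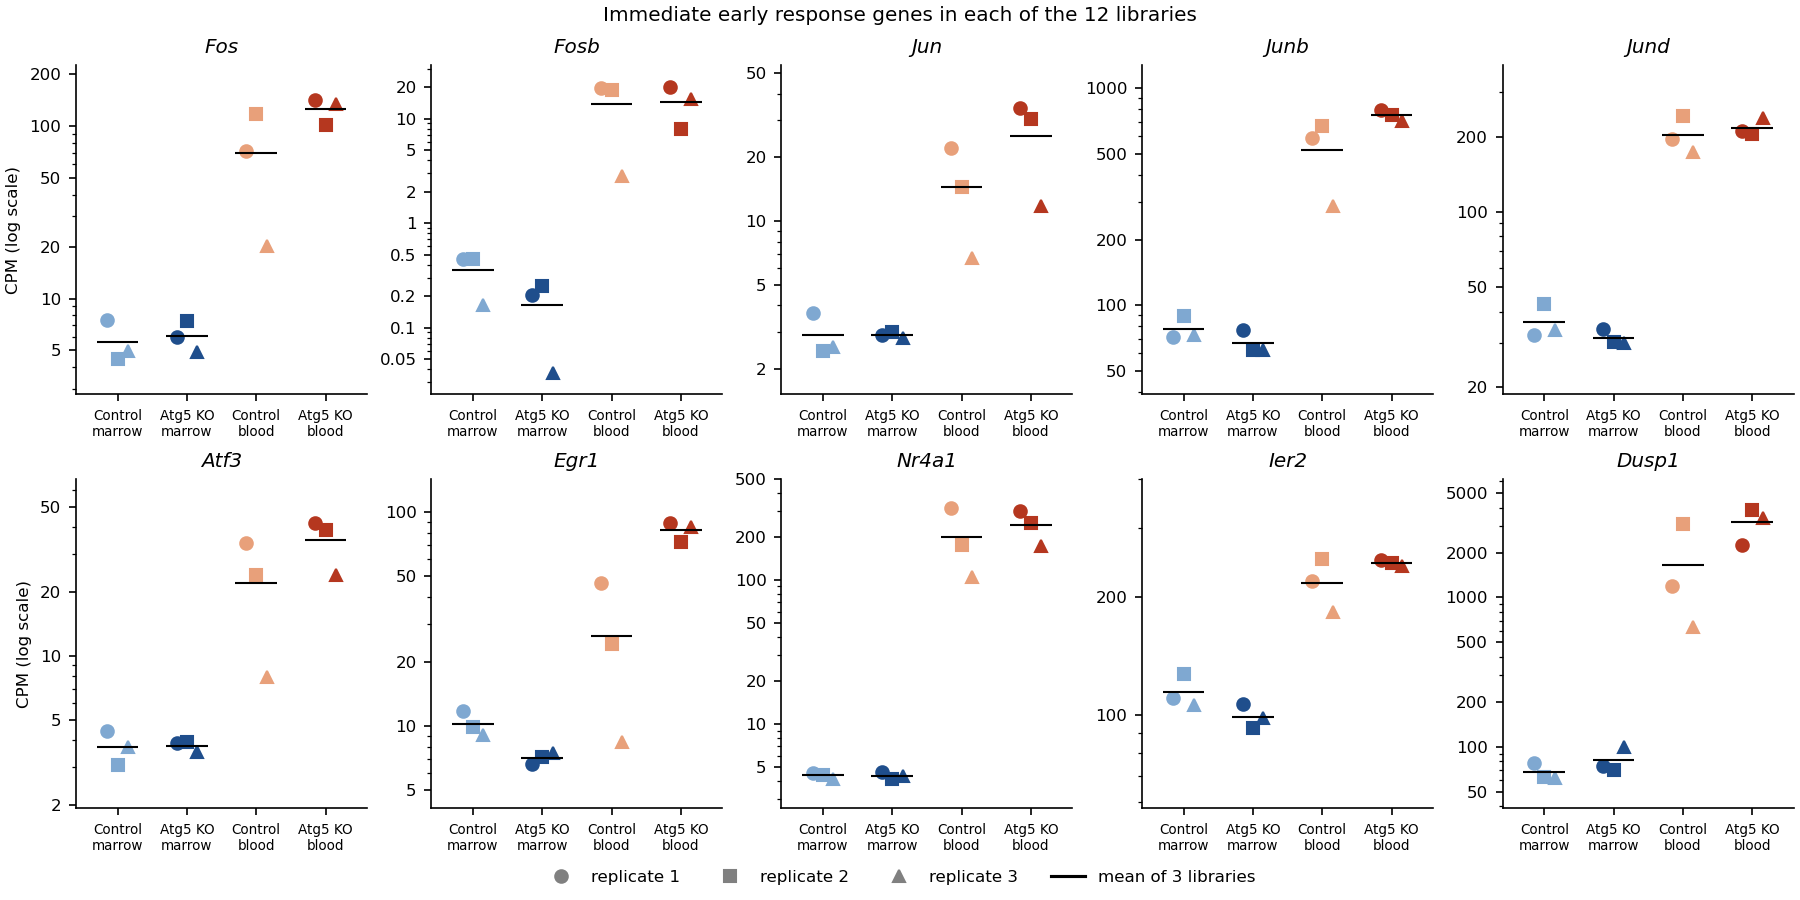
CPM on a log axis of the 10 immediate early response genes in each of the 12 libraries, with symbols for the replicate number and a bar at the mean of 3 libraries. Bone marrow values lie below blood, except that Egr1 of control blood replicate 3, at 8.40 CPM, lies below the control bone marrow libraries, and Fosb in bone marrow is spread from 0.0368 to 0.456 CPM.

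Among the FOS family, Fos (ENSMUSG00000021250, chr12:85473890-85477273, plus strand), which needs a JUN partner to bind DNA, was at 7.46, 4.45 and 4.97 CPM in control bone marrow and at 71.7, 118 and 20.3 CPM in control blood. In Atg5-knockout mice it was at 6.0, 7.38 and 4.90 CPM in bone marrow and at 141, 101 and 135 CPM in blood. Every blood library lay above every bone marrow library, and the lowest blood value, control replicate 3, was still above the highest of bone marrow. Blood exceeded bone marrow by a log2 fold change of 3.63 (SE 0.57, adjusted p = 0.00177) in control and 4.38 (SE 0.21, adjusted p = 1.3e-06) in Atg5-knockout mice.

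Fosb (ENSMUSG00000003545, chr7:19302696-19310051, minus strand), whose product forms AP-1 in the same way, was near the limit of counting in bone marrow. It had 15, 12 and 5 counts in the control and 6, 8 and 1 in the Atg5-knockout libraries there, or 0.0368 to 0.456 CPM. In blood it was at 19.7, 18.7 and 2.85 CPM in control and 20.2, 7.90 and 15.3 CPM in Atg5-knockout mice, so the tissues did not overlap. The log2 fold change was 5.23 (SE 0.77, adjusted p = 0.00131) and 6.40 (SE 0.56, adjusted p = 4.1e-05). Fosb passed the filter on low counts only through blood, where it was high, so its call is a description only and the size of its fold rests on 32 and 15 bone marrow counts.

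Of the JUN family, Junb (ENSMUSG00000052837, chr8:84974484-84978718, minus strand), which often restrains Jun activity, was at 71.3, 89.5 and 72.6 CPM in control bone marrow and 590, 673 and 288 CPM in control blood. In Atg5-knockout mice it was at 76.8, 62.5 and 62.2 CPM in bone marrow and 797, 752 and 706 CPM in blood. The 3 Atg5-knockout blood libraries lay within 1.13-fold of each other, the control ones within 2.34-fold, and no blood library reached down to bone marrow. In log2 fold change, blood exceeded bone marrow by 2.72 (SE 0.31, adjusted p = 0.000348) and 3.50 (SE 0.15, adjusted p = 8.65e-07). Junb shares 351 bases of its span with Prdx2 on the other strand, and strand was not used in counting.

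Jund (ENSMUSG00000071076, chr8:70698949-70700616, plus strand), the JUN member that resting cells keep expressed, was at 32.3, 42.8 and 33.8 CPM in control and 34.3, 30.2 and 29.9 CPM in Atg5-knockout bone marrow, and at 195, 241 and 173 CPM and 211, 204 and 236 CPM in blood. The log2 fold change was 2.47 (SE 0.20, adjusted p = 4.79e-05) in control and 2.80 (SE 0.13, adjusted p = 1.18e-06) in Atg5-knockout mice, with no overlap.

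Jun itself (ENSMUSG00000052684, chr4:95049034-95052222, minus strand) was low, at 2.43 to 3.68 CPM in the 6 bone marrow libraries. In blood it was at 22.0, 14.5 and 6.68 CPM in control and 34, 30.2 and 11.8 CPM in Atg5-knockout mice. Replicate 3 was the lowest of both blood groups and still above bone marrow. Its log2 fold change was 2.30 (SE 0.43, adjusted p = 0.004) and 3.14 (SE 0.37, adjusted p = 0.000211). An antisense gene, Junos, covers 689 bases of Jun and had 153 counts over the 12 libraries.

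Atf3 (ENSMUSG00000026628, chr1:191170296-191218039, minus strand) encodes a bZIP factor induced by stress that joins JUN proteins and often represses. It was at 3.08 to 4.41 CPM in bone marrow, at 33.9, 24.0 and 7.96 CPM in control blood and at 42.1, 38.7 and 24.0 CPM in Atg5-knockout blood. Blood again exceeded bone marrow in all libraries, with log2 fold changes of 2.54 (SE 0.47, adjusted p = 0.00396) and 3.22 (SE 0.24, adjusted p = 1.6e-05).

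Egr1 (ENSMUSG00000038418, chr18:34859823-34864984, plus strand), a zinc finger factor induced through serum response factor, was the exception in control mice. There it was at 11.7, 9.84 and 9.08 CPM in bone marrow and at 46.5, 24.2 and 8.40 CPM in blood, so that blood replicate 3 fell below the control bone marrow range. The log2 fold change was 1.36 (SE 0.50, adjusted p = 0.0631) and was not called. It was called with DESeq2 (adjusted p = 0.0126), without the filter on low counts, in a fit of all 12 libraries, and without control blood replicate 3 (1.79, adjusted p = 0.00351). Without control blood replicate 1 it was 0.67 (adjusted p = 0.162). In Atg5-knockout mice Egr1 was at 6.61, 7.13 and 7.48 CPM in bone marrow and 89.0, 72.1 and 85.4 CPM in blood, a log2 fold change of 3.55 (SE 0.15, adjusted p = 8.56e-07), with the groups far apart.

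Nr4a1 (ENSMUSG00000023034, chr15:101254269-101274795, plus strand), an orphan nuclear receptor (NUR77) best known as a mark of antigen receptor signalling in lymphocytes, had the largest difference in control mice. It was at 4.16 to 4.6 CPM in all 6 bone marrow libraries, the narrowest range of the 10 genes there. In blood it was at 313, 174 and 104 CPM in control and 299, 247 and 171 CPM in Atg5-knockout mice. The log2 fold change was 5.47 (SE 0.41, adjusted p = 3.43e-05) and 5.79 (SE 0.24, adjusted p = 8.56e-07), or 44.5-fold and 55.3-fold.

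Ier2 (ENSMUSG00000053560, chr8:84661331-84662852, minus strand), a short nuclear protein induced by growth factors, differed least. It was at 111, 127 and 106 CPM in control and 107, 92.8 and 98.4 CPM in Atg5-knockout bone marrow, and at 219, 250 and 183 CPM and 249, 244 and 241 CPM in blood. The tissues did not overlap, and the log2 fold change was 0.91 (SE 0.17, adjusted p = 0.00434) and 1.32 (SE 0.11, adjusted p = 3.76e-05). It was the member that did not reach a log2 fold change of 2 in either genotype.

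Dusp1 (ENSMUSG00000024190, chr17:26505590-26508519, minus strand), the phosphatase that inactivates p38 and JNK, was the most abundant member in blood. It was at 78.1, 63.1 and 62.0 CPM in control and 74.1, 69.6 and 99.2 CPM in Atg5-knockout bone marrow. In blood it was at 1192, 3115 and 634 CPM in control and at 2243, 3881 and 3422 CPM in Atg5-knockout mice, so that control replicates 1 and 3 were below all Atg5-knockout libraries and replicate 2 was not. The log2 fold change was 4.59 (SE 0.55, adjusted p = 0.000458) and 5.31 (SE 0.27, adjusted p = 1.72e-06). Dusp1 made up 44.1% to 69.6% of the summed CPM of the 10 genes in blood and 18.2% to 31.7% in bone marrow.

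**Figure D2:**
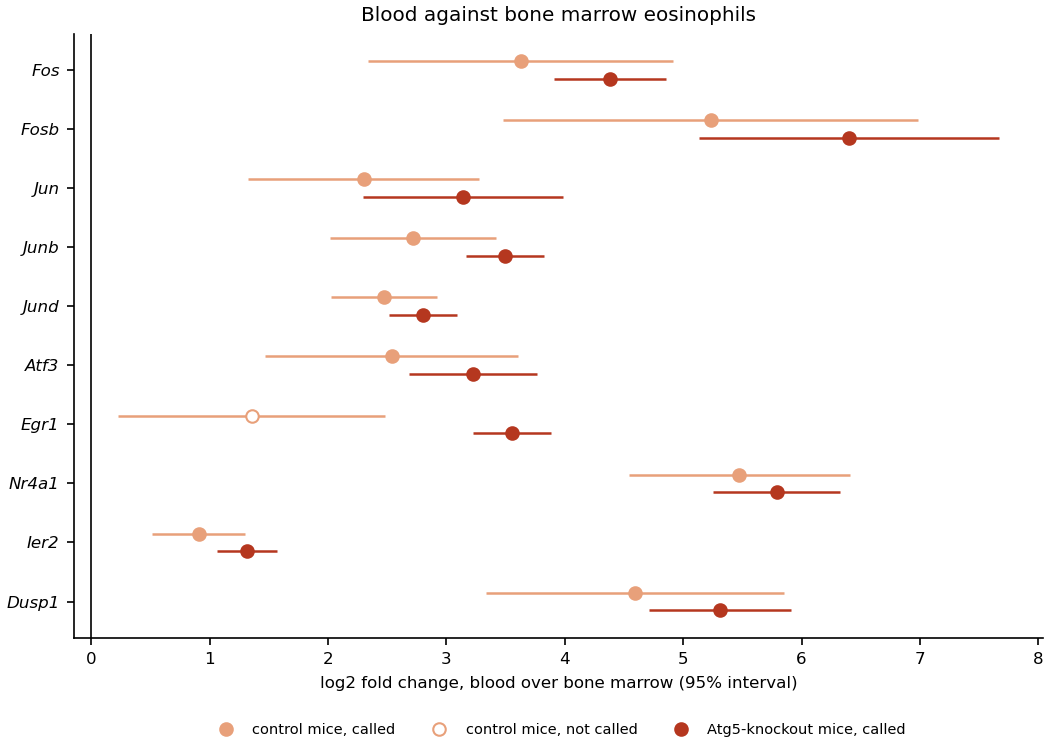
Log2 fold change of blood over bone marrow with its 95% interval for the 10 genes, in control mice and in Atg5-knockout mice, filled where the gene was called and open where it was not. All 20 estimates are above 0, from 0.91 for Ier2 in control to 6.40 for Fosb in Atg5-knockout mice, and Egr1 in control mice is the one not called.

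All libraries of blood exceeded all of bone marrow for 9 members in control mice, beside 23.5% of all genes, and for 10 in Atg5-knockout mice, beside 27.7%. Leaving out 1 library at a time kept 9 or 10 calls in control and 10 in Atg5-knockout mice. The sizes moved with single blood libraries in control mice: without replicate 2, the log2 fold change of Fos was 3.02 and that of Dusp1 3.75, and without replicate 1 that of Nr4a1 was 4.98. Without replicate 3, the members' median rose from 2.63 to 2.98. Scaling by library size alone put the median of all genes at -0.31 in control and -0.24 in Atg5-knockout mice and moved the members' medians to 2.33 and 3.30, with the same 9 and 10 calls.

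Markers of other cells moved between the tissues too. Beside the counts below, 16.2% of all genes were higher and 18% lower in control blood, and 23.5% and 24.1% in Atg5-knockout blood. Of the 11 neutrophil markers, 0 were called higher and 4 lower in control blood, and 1 higher and 6 lower in Atg5-knockout blood. Of the T cell and NK cell markers, 5 of 7 tested were higher in control blood and 10 of 11 in Atg5-knockout blood, and Cd3e had no count in any bone marrow library. B cell markers were 2 of 5 and 5 of 7 higher, with the libraries numbered 1 of either genotype far above the rest at 1258 and 2138 CPM. In bone marrow alone, 6 of 12 T cell and NK cell markers and 6 of 7 B cell markers passed the filter. Markers that passed it only through blood, where they were high, could hardly go the other way. Their calls are a description only. Monocyte and macrophage markers were 6 of 9 higher in both, with 0 called lower in control and 2 in Atg5-knockout blood. The 10 eosinophil markers summed to 72237 to 94536 CPM in bone marrow and 17483 to 47259 CPM in blood. Of the 10, 6 were called lower and 2 higher in blood in each genotype. In control bone marrow and blood Prg2 averaged 45204 and 16278 CPM, but Siglecf 442 and 850 CPM and Ccr3 992 and 1576 CPM. The 5 markers of dividing cells, all called lower in blood, summed to 982 to 1449 CPM and 34.2 to 102 CPM. Control blood replicate 1 stood apart with red cell markers at 168129 CPM against 4585 to 16624 CPM in the other blood libraries, and without it 9 members were still called. The part of these cells in the members' levels was not tested.

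The levels of different genes were compared as CPM per kilobase of counted exon. In control bone marrow the order was Ier2 at 75.5, Junb at 33.8, Dusp1 at 25.1 and Jund at 21.8, and then, an order of magnitude lower, Fos at 2.39, Egr1 at 2.27, Atf3 at 1.73, Nr4a1 at 1.25, Jun at 0.906 and Fosb at 0.0576 CPM per kilobase. Libraries of Dusp1 and Jund overlapped, as did those of Fos, Egr1 and Atf3, and the other neighbours were apart. In Atg5-knockout bone marrow Ier2 led at 65.3, followed by Dusp1 at 30 and Junb at 29.2, which overlapped. The upper 4 genes were thus the same in both genotypes of bone marrow.

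In blood, Dusp1 led the order. In Atg5-knockout blood it was at 1180 CPM per kilobase, above 99.7% of the genes tested, then Junb at 327, Ier2 at 161, Jund at 130, Nr4a1 at 68.2, Fos at 53.5, Egr1 at 18.3, Atf3 at 16.2, Jun at 7.95 and Fosb at 2.32, and only the libraries of Nr4a1 and Fos and those of Egr1 and Atf3 overlapped. In control blood the means gave Dusp1 at 611, Junb at 225, Ier2 at 143 and Jund at 122, but neighbours overlapped in all places of the order except between Jund and Nr4a1. Nr4a1 moved from above 33.0% of the genes tested in control bone marrow to above 92.7% in control blood.

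The second question was how these genes differed between Atg5-knockout and control mice. In bone marrow eosinophils none of the 9 genes tested was called, beside 0.348% of all genes (DESeq2 also called 0). Fosb was below the filter on low counts. At an unadjusted p under 0.05 there was 1 member, Egr1, beside 9.67% of all genes. The members' median log2 fold change was -0.04 against 0.0029 for all genes, and the values ran from -0.56 for Egr1 to 0.23 for Dusp1.

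The bone marrow values of Egr1 given above put all Atg5-knockout libraries below all control libraries, as for 5.67% of all genes, with a log2 fold change of -0.56 (95% interval -0.90 to -0.22, adjusted p = 0.229). For the other 8 genes the libraries of the genotypes overlapped. Ier2 was at -0.24 (95% interval -0.48 to 0.0016), Junb at -0.24 (95% interval -0.52 to 0.04) and Jund at -0.24 (95% interval -0.52 to 0.05), while Dusp1 was at 0.23 (95% interval -0.09 to 0.54). Fos, Jun, Atf3 and Nr4a1 lay between -0.04 and 0.09, and the sign of each of these 4 changed when single libraries were left out. Beside these values, red cell markers had a median of 1.33 (10 of 10 above 0 and at an unadjusted p under 0.05, 1 called), platelet markers had a median of 0.62 (8 of 9 above 0) and dividing cell markers of 0.20 (5 of 5 above 0). Their part in the members' values was not tested.

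In blood eosinophils none of the 10 genes was called, beside 0.0371% of all genes (DESeq2 also called 0), and 1, again Egr1, was at an unadjusted p under 0.05, beside 2.58% of all genes. All 10 estimates were above 0, with a median of 0.62 against 0.0062 for all genes. The count depended on control blood replicate 3, since without it 8 of 10 were above 0, with a median of 0.28, Fosb at -0.39 and Nr4a1 at -0.0038. Without Atg5-knockout blood replicate 1, 9 were above 0. With the replicate number as a block, 0 were called and 10 were above 0, with a median of 0.75.

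Egr1 in blood was at 72.1 to 89.0 CPM in Atg5-knockout and 8.40 to 46.5 CPM in control libraries, a log2 fold change of 1.66 (SE 0.50, 95% interval 0.53 to 2.79, adjusted p = 1.0). Its groups did not overlap, and neither did those of Junb (0.56, 95% interval -0.12 to 1.23), 2 of 10 members beside 3.53% of all genes. Egr1 was called in blood only when the filter on low counts was dropped (adjusted p = 0.00115), and the adjusted p ran from 0.112 to 1.0 in the other settings. The 95% intervals of Dusp1 (-0.20 to 2.13), Fos (-0.29 to 2.01), Jun (-0.27 to 1.93) and Atf3 (-0.35 to 1.73) included both 0 and values above 1, so a difference of that size was not excluded. With same-numbered libraries as pairs the estimates were 1.23 (SE 0.34) for Dusp1, 1.15 (SE 0.46) for Fos, 0.85 (SE 0.19) for Jun and 0.86 (SE 0.24) for Atf3, with adjusted p from 0.317 to 0.638 in edgeR's test. Without the pairs, the intervals of Ier2 (-0.21 to 0.59) and Jund (-0.31 to 0.54) were narrower. Markers of other cells differed beside these values, with none called: B cell markers had a median of 0.82 (7 of 7 above 0) and T cell and NK cell markers of 0.44 (11 of 12 above 0), while red cell, platelet and eosinophil markers had medians of -3.64, -2.26 and -0.33. Red cell markers summed to 168129, 5939 and 16624 CPM in control blood replicates 1, 2 and 3, against 4585 to 7092 CPM in Atg5-knockout blood. Platelet markers summed to 418, 117 and 185 CPM, against 79.7 to 84.4 CPM. The part of all these markers in the members' values was not tested. With both blood libraries numbered 1 left out 0 members were called and Egr1 was at 2.28.

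**Figure D3:**
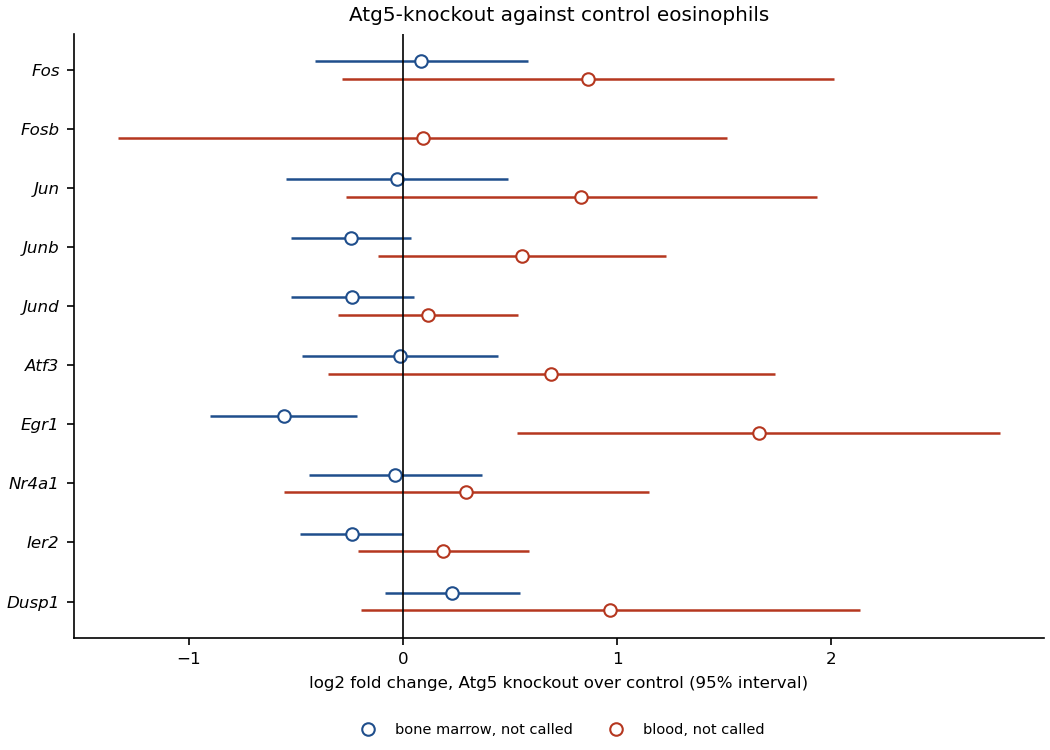
Log2 fold change of Atg5-knockout over control with its 95% interval, in bone marrow and in blood, open circles since none was called. Egr1 is the gene whose intervals lie on opposite sides of 0, at -0.56 in bone marrow and 1.66 in blood, and Fosb was not tested in bone marrow.

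Whether the deletion acted differently in the tissues was tested as an interaction over all 12 libraries. None of the 10 members was called, as was 0% of all genes, where no gene had an adjusted p below 0.406. Before adjustment 2 members, Egr1 and Junb, had p under 0.05, beside 5.03% of all genes. DESeq2 called 0 members. The difference was 2.17 (SE 0.57, adjusted p = 0.852) for Egr1 and 0.75 (SE 0.34, adjusted p = 0.942) for Junb. All 10 were above 0, with a median of 0.71, and 9 without control blood replicate 3, with a median of 0.29.

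The spread among replicates was uneven. In control blood the members' coefficient of variation over 3 libraries had a median of 56.8%, from 15.4% for Ier2 to 79.0% for Dusp1, while the median of all genes tested was 27.3%. It was 21.8% in Atg5-knockout blood (all genes 22.5%), 14.5% in control bone marrow (all genes 14.5%) and 7.36% in Atg5-knockout bone marrow (all genes 11.5%). Control blood replicate 3 was the lowest of its group for all 10 members, with a median deviation of -1.0 from the group mean on the log2 CPM scale and a summed level of 1429 CPM, against 2704 and 4652 CPM in replicates 1 and 2. In Atg5-knockout blood replicate 1 was the highest for 8 members but not for Dusp1, for which it was the lowest. That library's total of 4126 CPM was below the 5579 and 5047 CPM of replicates 2 and 3, and in bone marrow the sums were 281 to 347 CPM in all 6 libraries.

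**Figure D4:**
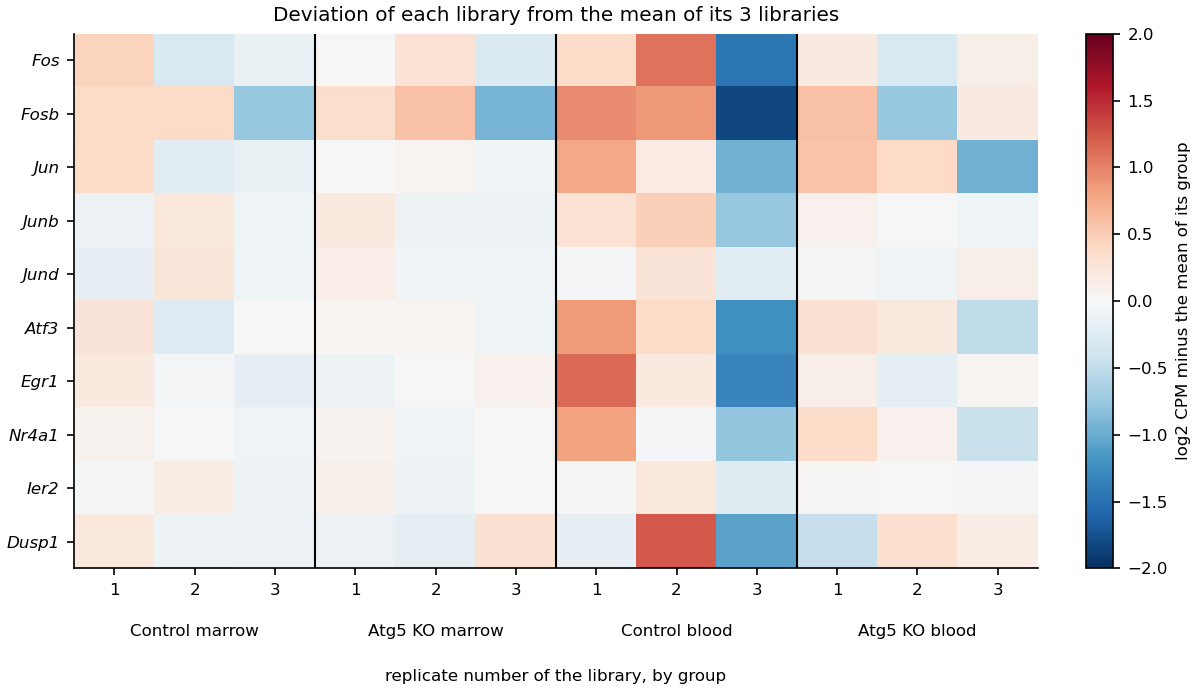
Deviation of log2 CPM from the mean of its group for each gene (lines) and library (columns, by group and replicate number), red above and blue below. The column of control blood replicate 3 is blue for all 10 genes, with a median of -1.0, and bone marrow columns stay between -0.30 and 0.44 except for Fosb, which runs from -0.93 to 0.58.

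Within groups the members' deviations were mostly alike over the 6 blood libraries, where control replicate 3 was the lowest of its group for all 10. In Atg5-knockout blood they did not all move together. Replicate 1 was the highest there for 8 members and the lowest for Dusp1, and replicate 3 was the lowest for 5. How far the correlations rest on control replicate 3 was not tested. Over the 6 blood libraries the deviations from the group mean had a median Pearson correlation of 0.77 among the 45 pairs, from 0.06 for Jun and Jund to 0.97 for Fos and Ier2, and over the 6 bone marrow libraries 0.28, from -0.74 for Jund and Atf3 to 0.95 for Junb and Jund. Over all pairs of genes tested the median was 0.0038 in blood and 0.0033 in bone marrow. The members of a library share its depth and its cells, so this is a description. The 5 other genes whose deviations over the 12 libraries were most like the members' mean were Miga2 (r = 0.99), Farsb and Rhot1 (both 0.97), 9530085L11Rik (0.97) and Vav1 (0.97). In control mice each of these 5 had a lower mean in blood than in bone marrow: Vav1, a guanine nucleotide exchange factor of leukocytes, averaged 140 CPM in control bone marrow and 99.6 CPM in control blood, and Farsb, a subunit of a tRNA synthetase, 41.4 and 16.4 CPM.

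The other genes of the response were taken from lists by role. Among 28 other immediate early genes, 23 were tested between blood and bone marrow, and 14 were higher and 1 lower in control mice, 15 higher and 0 lower in Atg5-knockout mice, beside 16.2% higher and 18% lower, and 23.5% higher and 24.1% lower, of all genes. Their medians were 1.33 and 1.25. Per1, a clock gene that also answers glucocorticoids and cAMP, was at 18.4 ± 1.65 CPM in control bone marrow and 293 ± 33.9 CPM in control blood (SD, n = 3; log2 fold change 3.98, adjusted p = 6.99e-06). Sgk1, a kinase induced by serum and glucocorticoids, rose by 2.74 and Plk3, a stress kinase, by 3.69 (adjusted p = 9.47e-05 and 0.000317). In Atg5-knockout mice Ier3 rose by 3.71, Csrnp1 by 3.41 and Plk3 by 4.59 (adjusted p = 1.23e-06, 1.3e-06 and 4.4e-06). Means in the other genotype were higher in blood too. In control bone marrow and blood Ier3 averaged 16.7 and 127 CPM and Csrnp1 15.2 and 95.3 CPM. Per1 averaged 22.7 and 355 CPM and Sgk1 43.0 and 261 CPM in Atg5-knockout bone marrow and blood.

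Of 16 feedback inhibitors tested, 13 were higher and 0 lower in control blood, beside 16.2% and 18% of all genes. In Atg5-knockout blood 13 were higher and 1 lower, beside 23.5% and 24.1%. The medians were 2.39 and 2.78. Dusp16, a phosphatase of JNK and p38, went from 7.17 ± 0.325 CPM in control bone marrow to 194 ± 92.9 CPM in control blood (SD, n = 3; log2 fold change 4.74, adjusted p = 2.88e-05) and rose by 4.6 in Atg5-knockout mice (adjusted p = 1.3e-06). Dusp5, a nuclear phosphatase of ERK, rose by 3.35 and 3.27 (adjusted p = 4.23e-05 and 1.3e-06). Nfkbiz, an atypical IκB protein, rose by 3.82 in control mice (adjusted p = 3.02e-05), and Tnfaip3, the A20 inhibitor of NF-κB, by 3.27 in Atg5-knockout mice (adjusted p = 1.09e-06). Both also had higher means in blood in the other genotype. Nfkbiz averaged 3.57 and 89.8 CPM in Atg5-knockout bone marrow and blood, and Tnfaip3 61.0 and 343 CPM in control bone marrow and blood.

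The remaining AP-1 and bZIP partners were mixed. In control mice 1 of 9 was higher and 2 lower (Mafk 1.28, Atf2 -0.61 and Mafg -0.63, adjusted p = 0.0105, 0.0313 and 0.0346), and in Atg5-knockout mice 5 of 10 were higher and 1 lower, among them Maff at 2.17, Batf3 at 1.85 and Mafg at -0.85 (adjusted p = 8.76e-05, 0.000208 and 0.00058). Upstream kinases and factors had medians of 0.21 and 0.26, with 3 of 26 higher and 1 lower in control mice and 9 higher and 2 lower in Atg5-knockout mice. In control mice the counts of both lists were near or under the 16.2% higher and 18% lower of all genes. The shares of all genes in Atg5-knockout mice were 23.5% higher and 24.1% lower. Elk3, a partner of serum response factor, rose by 0.76 and 1.21 (adjusted p = 0.0269 and 8.89e-05), Map2k1, the kinase MEK1, by 0.46 in control mice (adjusted p = 0.0377) and Braf by 0.53 in Atg5-knockout mice (adjusted p = 0.00707). Rps6ka5, the histone kinase MSK1, fell by 1.03 and by 1.07 on the log2 scale (adjusted p = 0.00574 and 0.000854).

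Heat shock genes encode chaperones that answer unfolded protein. In control mice 6 of 10 tested were lower in blood and 1 higher, with a median of -1.03, and in Atg5-knockout mice 5 of 11 were lower and 1 higher, with a median of -0.51. The mitochondrial chaperone Hspd1 was at 181 ± 38.1 CPM in control bone marrow and 70.0 ± 5.90 CPM in control blood (SD, n = 3; log2 fold change -1.38, adjusted p = 0.00082), its partner Hspe1 was at -1.07 and -0.72 in control and Atg5-knockout mice (adjusted p = 0.00177 and 0.00136), and Hsp90ab1 at -0.78 in Atg5-knockout mice (adjusted p = 0.00138). Dnajb4, a cochaperone, was the one higher, by 1.74 and 1.97 (adjusted p = 0.00296 and 4.96e-05).

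**Figure D5:**
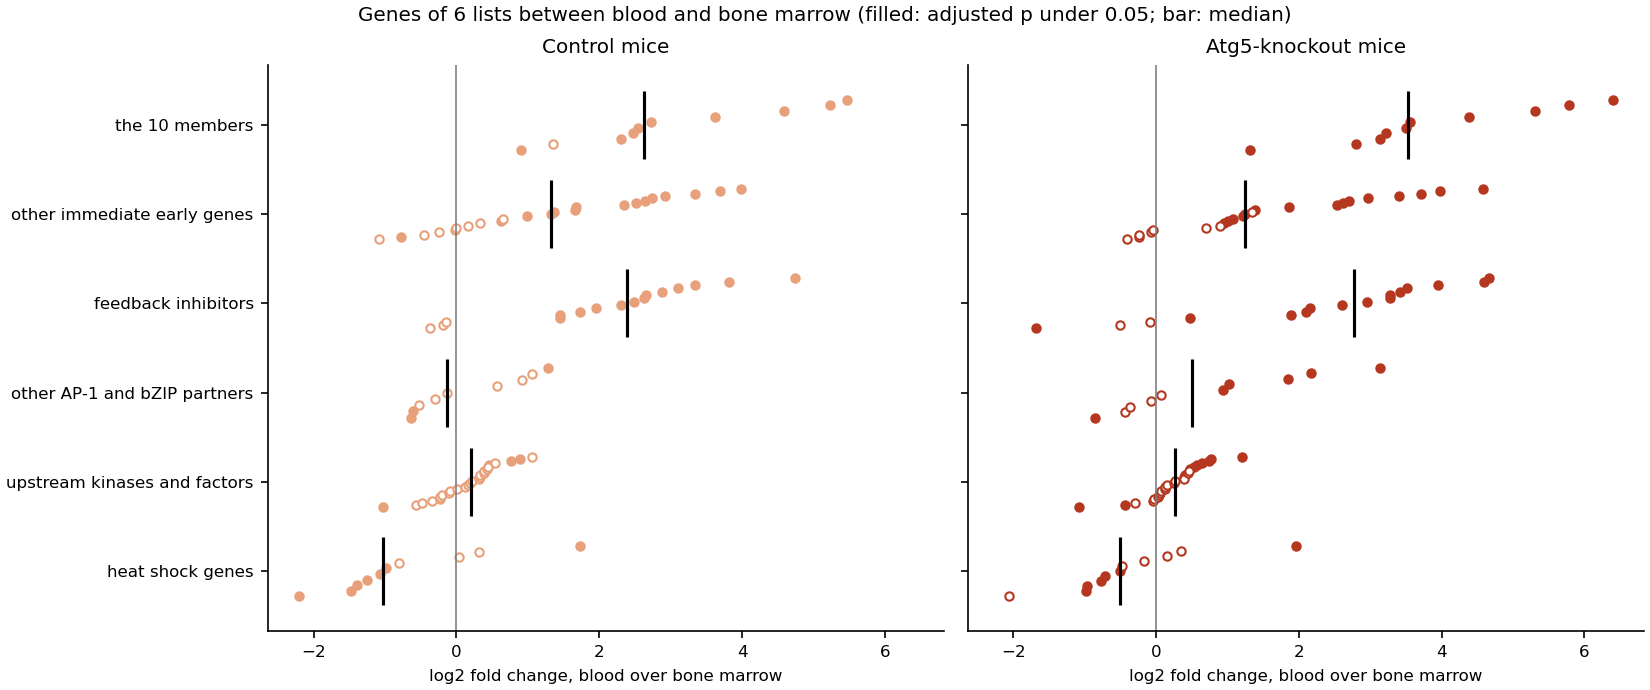
Log2 fold change of blood over bone marrow for the tested genes of 6 lists, in control mice and in Atg5-knockout mice, filled where called, with a bar at the median of the list. The 10 members have medians of 2.63 and 3.53, feedback inhibitors 2.39 and 2.78, and heat shock genes -1.03 and -0.51.

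Between the genotypes these lists held 1 call. In bone marrow, beside 0.348% of all genes, Elk3 fell from 42.3 ± 9.20 CPM in control to 21.8 ± 1.13 CPM in Atg5-knockout eosinophils (SD, n = 3; log2 fold change -0.99, adjusted p = 0.0177). Before adjustment, 6 of 23 other immediate early genes, 6 of 16 feedback inhibitors, 4 of 26 upstream kinases and factors, 1 of 9 AP-1 and bZIP partners and 0 of 12 heat shock genes had p under 0.05 there, beside 9.67% of all genes. In blood none was called, beside 0.0371% of all genes, and 4 of the other immediate early genes and 1 gene of each other list had p under 0.05 before adjustment, beside 2.58% of all genes. In the interaction none was called (lowest adjusted p of any gene 0.406). The medians of other immediate early genes and of feedback inhibitors were -0.19 and -0.11 in bone marrow and 0.24 and 0.30 in blood.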

How the data were processed

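RNA of 12 eosinophil libraries, 3 per genotype and tissue, was prepared with a stranded kit and read single-end. Per the labels and file header, the authors aligned reads with HISAT2 2.2.1 and counted them per gene with featureCounts 2.0.1 without a strand option, and the deposited values are raw counts (Ensembl release 92 of GRCm38 in the header). Symbols were matched for 49674 of 53801 identifiers. The 10 genes and the gene lists were chosen with earlier results of these data known. Genes passed edgeR's filterByExpr (minimum count 10, minimum total 15). Each comparison was fitted on its 6 libraries, and the interaction on 12, with TMM factors and edgeR's quasi-likelihood test (edgeR 4.0.16, limma 3.58.1, R 4.3.3), adjusted over all genes tested, after the code was tested on simulated data. Log2 CPM used a prior count of 2, and fitted fold changes a prior count of 0.125. Alternatives were RLE factors, library size alone, no filter, 1 CPM in 3 libraries, DESeq2 1.42.0, limma-voom, a replicate block, all 12 libraries in 1 fit, and each library left out. Leaving out both blood libraries numbered 1 was added after seeing the data. Named genes were the 10 members, the 3 called genes of lowest p in each other list and comparison, and the 5 genes most correlated with the members' mean deviation. Being named in 1 genotype does not mean that a gene differed only there. Defining markers were named as checks. Same-numbered blood libraries of the 2 genotypes deviated together over genes (r = 0.50, 0.21 and 0.30). The blood values given with pairs rest on this pattern and come from the replicate block, an alternative. The main tests used no pairs. The labels do not say what a number shares. P-values measure only the spread between these samples, and total counts limit the precision of low genes such as Fosb in bone marrow.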

Additional observations from a re-analysis of the deposited data

Results flagged for a closer look

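Egr1 stood out because all 3 Atg5-knockout libraries lay below the control libraries in bone marrow and above them in blood. It was picked for this pattern, so the values that follow, from the same libraries, are a description and no separate support. The share of all genes with such a pattern was not counted. The difference of the knockout effect, blood minus bone marrow, was 2.17 on the log2 scale (SE 0.57, 95% interval 0.94 to 3.40), and the test of that difference over all 12 libraries gave an unadjusted p of 0.00214 and an adjusted p of 0.852 in edgeR's quasi-likelihood test. Over the alternatives the adjusted p ran from 4.11e-06, without a filter on low counts, to 1.0. Without control blood replicate 3, the library lowest for all 10 members, the difference was 1.74.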

How the results depend on the processing

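Without the filter on low counts 1 member, Egr1, was called in the blood comparison of genotypes and 1, again Egr1, in the interaction, where 0 were called otherwise. The cause was not tested. In the bone marrow comparison of genotypes Jun turned positive with library size alone (0.0054) and all 12 libraries (0.0020), as did Atf3 (0.0176 and 0.0148). Leaving out each library gave ranges of -0.069 to 0.34 for Fos, -0.13 to 0.18 for Jun, -0.13 to 0.12 for Atf3 and -0.075 to 0.0036 for Nr4a1 there, -0.39 to 0.44 for Fosb and -0.0038 to 0.80 for Nr4a1 in blood, and -0.020 to 0.79 for Nr4a1 in the interaction. With the replicate number as a block, 10 members were called between tissues in control mice, Egr1 being added (1.07, adjusted p = 0.043 in edgeR's test), 10 in Atg5-knockout mice and 0 in the other comparisons. Outside the blood comparison of genotypes, the deviations of same-numbered libraries correlated little (r from -0.15 to 0.13). This cannot tell whether same-numbered blood and bone marrow libraries came from 1 mouse. Of the values of single genes under alternatives, 735 kept direction and side of the threshold, 14 changed sign and 7 became called. Depth limits Fosb in bone marrow, with 32 control and 15 Atg5-knockout counts.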
